A study of Mus musculus with 32 samples.

Results

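mmu-miR-205-5p and mmu-miR-203-3p, called miR-205-5p and miR-203-3p here, were 2 of the 1079 mouse miRNAs on the array. They were found by the gene name given for their probes in the scanner output, and were chosen by their measured levels on these same arrays, which were already known. Their levels are therefore given as a description, with no test. The series measured miRNA in lungs of newborn mouse pups of the C57Bl/6J strain, kept in normoxia (room air) or hyperoxia (oxygen-enriched air, used to model bronchopulmonary dysplasia). Lungs were taken at P2.5, P3.5, P5.5 or P14.5 (P, postnatal day), 4 animals in each of 8 groups and 1 array for each of 32 animals. No group carried a transgene or a deleted gene, pups had been allotted at random at birth to 4 cages of each exposure, and all lungs were perfused through the heart until white before the whole organ was frozen. By the labels, pentobarbital was used up to P5.5 and isoflurane at P14.5. The methods of the study name pentobarbital alone, so whether the anaesthetic differed with age is not settled.

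A miRNA guides the silencing complex to messenger RNAs that pair with its seed, bases 2 to 8 from its 5′ end. miR-205 is abundant in the basal cells of stratified and pseudostratified epithelia, such as skin, oesophagus and trachea, and it represses the transcription factors ZEB1 and ZEB2 together with the miR-200 family. miR-203 is a miRNA of stratified squamous epithelium that represses p63, the transcription factor of basal cells, as these cells leave the basal layer. Neither is known for the alveolar surface that makes up most of the lung.

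The mature sequences are shown because the array reads the 3′ part of each and the seeds set their targets. They came from the RefSeq table for mouse and run 5′ to 3′, with the seed in capitals. The last line is miR-206-3p, a miRNA of skeletal muscle, to which the results below return.
miR-205-5p: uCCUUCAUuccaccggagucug
miR-203-3p: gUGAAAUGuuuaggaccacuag
miR-206-3p: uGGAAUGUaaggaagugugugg
The 3 seeds differ, and 0 other mature miRNAs of that source carried the seed of miR-205-5p, and 0 that of miR-203-3p. Each member was read by 2 probes of 20 spots each, and every probe paired without a mismatch to the last bases of its miRNA. The longer probe of miR-205-5p, cagactccggtggaat, paired with bases 7 to 22 and mapped to chr1:195333669-195333684 of mm9, the build of the deposited files. The longer probe of miR-203-3p, ctagtggtcctaaacatt, paired with bases 5 to 22 and mapped to chr12:113369142-113369159 of mm9. By RefSeq names, Mir205 lies inside the non-coding gene Mir205hg, and Mir203 lies between the genes Aspg and Kif26a and overlaps Gm51289 alone. The opposite arms of the hairpins, miR-205-3p and miR-203-5p, were well above background on 0 of 32 arrays.

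All levels are log2 of the signal after scaling by the 75th percentile that an array reached among the 205 probes detected on all arrays, and no value could fall under a floor of 1.20. Detected means that, on that array, at least 1 probe of the miRNA had a share of over 0.5 of its spots well above background. On 3 arrays of P14.5, replicates 28, 29 and 31, the labelling control fell outside the range the scanner software accepts. Scaling multiplied their signals by 2.70, 3.87 and 5.89. They showed 223, 206 and 165 miRNAs as detected, against 236 to 331 on the other 29. There were 5 slides and 3 scan days. All 5 members of the miR-200 family, markers of epithelium, were detected on every array.

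miR-205-5p stood far above its group on 1 array in each of 5 groups, and miR-203-3p was highest on those same 5 arrays. The arrays were replicate 4 of P2.5 normoxia, 8 of P2.5 hyperoxia, 11 of P3.5 normoxia, 19 of P5.5 normoxia and 29 of P14.5 hyperoxia. They belonged to both exposures and all 4 ages. In the other 3 groups, P3.5 hyperoxia, P5.5 hyperoxia and P14.5 normoxia, the 4 arrays lay close together and the highest array was not the same one for the 2 miRNAs.

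In P2.5 normoxia, miR-205-5p measured 4.04, 3.81, 3.52 and 6.99. Replicate 4 lay 3.20 above the mean of the other 3. In P2.5 hyperoxia the values were 4.62, 4.48, 4.23 and 7.74, and replicate 8 lay 3.29 above the mean of the other 3. In P3.5 normoxia they were 4.75, 3.85, 6.81 and 3.84. Replicate 11 stood 2.66 above the others. The P3.5 hyperoxia arrays measured 3.88, 4.21, 4.17 and 4.41, with no such array. In P5.5 normoxia miR-205-5p measured 3.01, 2.85, 6.20 and 3.497, and it was detected on replicate 19 alone. The P5.5 hyperoxia arrays measured 3.32, 3.54, 3.30 and 3.36, and 2 of 4 were detected. In P14.5 normoxia the values were 1.20, 1.35, 1.53 and 1.20, with 0 of 4 arrays detected. In P14.5 hyperoxia they were 5.94, 1.44, 2.77 and 1.20, and replicate 29 was the one array detected. Over the other 27 arrays the highest level was 4.75.

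miR-203-3p repeated the pattern with smaller steps. It measured 4.44, 4.53, 4.53 and 5.96 in P2.5 normoxia, and 4.55, 4.79, 4.66 and 6.42 in P2.5 hyperoxia. Replicates 4 and 8 lay 1.46 and 1.75 above the mean of the other 3. In P3.5 normoxia it measured 4.21, 4.45, 5.65 and 4.55, replicate 11 standing 1.24 above the others. In P3.5 hyperoxia the 4 values, 4.80, 4.67, 4.75 and 4.73, spanned less than the step on any of those 3 arrays. In P5.5 normoxia it measured 4.12, 4.20, 5.04 and 4.15, a step of 0.88 on replicate 19. The P5.5 hyperoxia values were 4.14, 4.17, 4.34 and 4.32. Unlike miR-205-5p, miR-203-3p stayed detected at P14.5 on 3 of 4 arrays in each exposure. The P14.5 normoxia values were 4.49, 4.61, 4.37 and 4.19, and the P14.5 hyperoxia values were 6.46, 3.56, 1.20 and 3.89. There replicate 29 lay 3.58 above the mean of the other 3, a mean that includes replicate 31 at the floor.

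**Figure D1:**
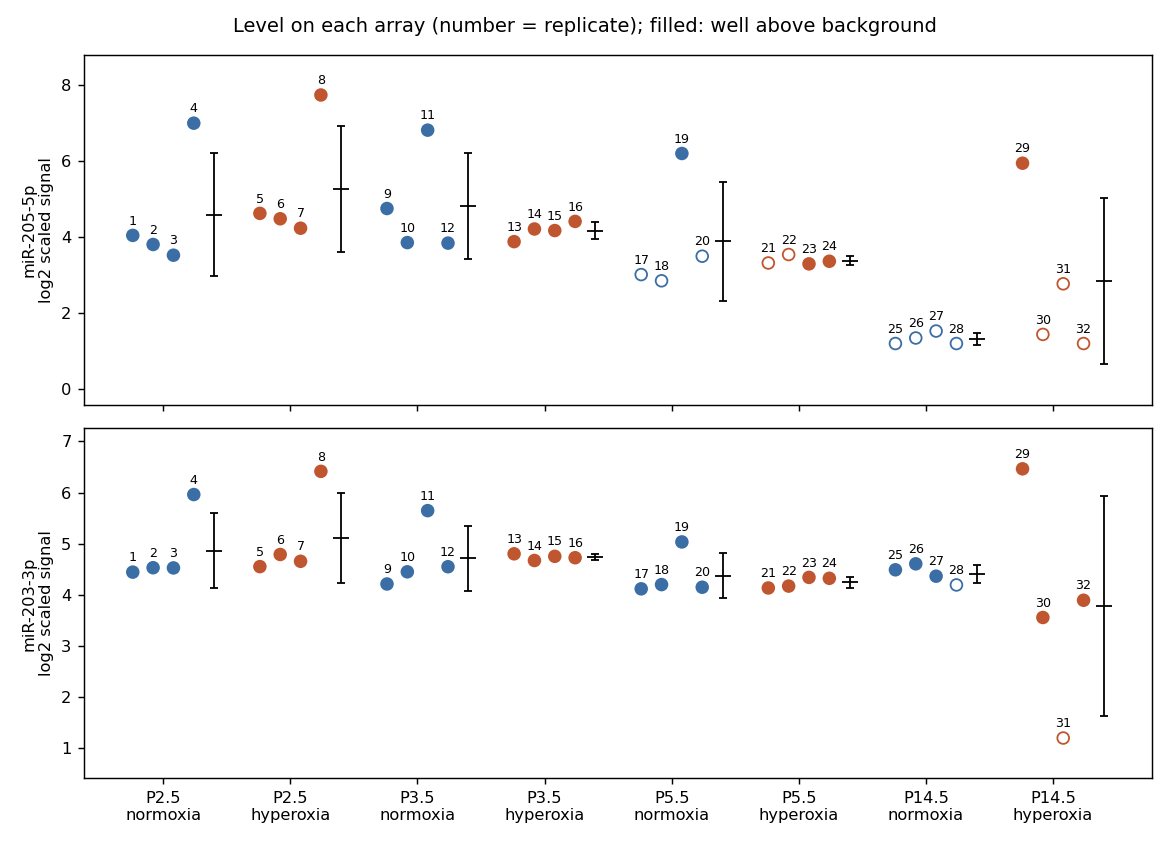
Level of miR-205-5p (top) and miR-203-3p (bottom) on each of the 32 arrays, as log2 scaled signal, by group, with the replicate number above each point. Blue is normoxia and orange hyperoxia, filled points were detected, and black bars give mean ± SD of 4 arrays. Replicates 4, 8, 11, 19 and 29 stand above their groups in both panels, from 5.94 to 7.74 for miR-205-5p.

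The signals before scaling showed how far the scaling of weak arrays entered these values. On its brighter probe miR-205-5p read 124 units on replicate 4 against 16.0 to 26.2 on the other 3 arrays of the group, and 283 on replicate 8 against 19.2 to 33.7. It read 129 on replicate 11 against 17.4 to 39.3, and 42.7 on replicate 19 against 6.17 to 8.96. On replicate 29 it read 21.3 against 0.686 to 4.01. miR-205-5p thus stood apart on all 5 arrays without any scaling. The same held for miR-203-3p on replicates 4, 8 and 11, at 65.1, 119 and 62.7 units, where the other arrays of those groups read 26.6 to 42.5. On replicate 19 it read 21.5 units against 16.0 to 20.2, so that most of its step there came with a scale factor of 2.27. On replicate 29 it read 33.5 units against 0.496 to 17.8. Over the 32 arrays the 2 probes of a miRNA gave the same picture, with a Pearson correlation of their log2 scaled signals of 0.99 for miR-205-5p and 0.98 for miR-203-3p.

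Among the 319 miRNAs that some group showed as detected on each of its 4 arrays, miR-205-5p had the largest measured difference from the other 3 arrays of the group on each of those 5 arrays. On replicates 19 and 29 those other 3 arrays were all undetected, so that the differences of 3.08 and 4.14 are set against background. With undetected arrays placed at their detection limit, the lowest signal well above background on the array, they were at least 2.27 and 1.24. On replicate 29 that is less than the 1.74 of miR-203-3p under the same limits. By measured difference miR-203-3p ranked 2, 2, 6, 4 and 2 on replicates 4, 8, 11, 19 and 29. On replicate 4 they were the only 2 of the 319 to differ by more than 1, and on replicate 8 there were 5. miR-206-3p was not among the 319, as no group showed it as detected on all 4 arrays. Among the miRNAs detected on each of the 5 arrays it ranked 1 by measured difference, with miR-205-5p at 2. That pool admitted miR-206-3p through the very arrays where it was high, so this rank is a description. With undetected arrays at their limit, miR-206-3p ranked 2, 1, 4, 1 and 1 on replicates 4, 8, 11, 19 and 29. In the same pools and under the same limits miR-205-5p ranked 1, 2, 1, 2 and 6. The SD within groups, pooled over the 3 early ages, was 1.28 for miR-205-5p, rank 1 of 319, and 0.57 for miR-203-3p, rank 15, against a median of 0.18 over all 319. With P14.5 included it was 1.35 and 0.91, ranks 1 and 6. The miRNAs in ranks 2 to 4 at the early ages were all of striated muscle, miR-133b-3p, miR-1a-3p and miR-133a-3p.

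**Figure D2:**
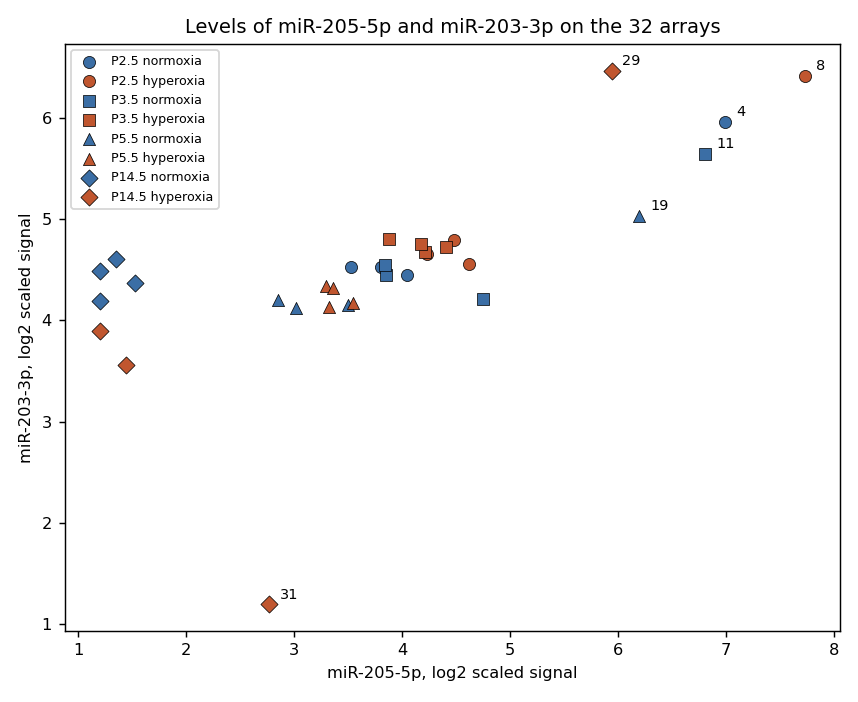
Level of miR-203-3p against that of miR-205-5p on the 32 arrays, both as log2 scaled signal, with marker shape for age and colour for exposure. Replicates 4, 8, 11 and 19 lie up and to the right of their own groups, replicate 29 lies highest for miR-203-3p at 6.46, and replicate 31, of low labelling, lies lowest at 1.20.

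The link between the 2 miRNAs rested on these arrays. Over all 32 arrays the Pearson correlation of their deviations from the group means was 0.70 and Spearman's rho 0.63. Over the 24 arrays of the first 3 ages, a choice made after the data were seen, the Pearson correlation of their levels was 0.93 and Spearman's rho 0.81. Within single ages, over 8 arrays each, Pearson's r was 0.98 at P2.5, 0.78 at P3.5, 0.94 at P5.5 and 0.40 at P14.5, while rho was 0.86, 0.26, 0.33 and 0.07. The arrays fall into a few high ones and the rest, and the order among the rest was shared at P2.5 more than at the later ages. These correlations are descriptions over arrays that share slides and scaling.

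Markers of other tissues were read on the same arrays. miR-206-3p, a miRNA made almost only in skeletal muscle, was detected on 7 of 32 arrays, and the 5 arrays above were among them. It measured 5.89 on replicate 4, where the other 3 arrays of the group were at the floor. It measured 7.86 on replicate 8, 6.46 on replicate 11, 6.30 on replicate 19 and 6.79 on replicate 29. The other arrays of these groups were mostly undetected for miR-206-3p. With undetected arrays at their detection limit it stood at least 2.39, 3.60, 1.49, 2.37 and 2.09 above the other 3 on replicates 4, 8, 11, 19 and 29. Its measured differences there, 4.69, 4.59, 2.96, 5.10 and 4.23, were larger than those of miR-205-5p on all 5 arrays. On replicate 8 the bound was also above the 3.29 of miR-205-5p. On replicates 4, 11, 19 and 29 such bounds cannot show which step was larger. The other 2 arrays with miR-206-3p detected were replicate 5 of P2.5 hyperoxia, at 5.66, and replicate 9 of P3.5 normoxia, at 8.10. On these 2 arrays miR-205-5p measured 4.62 and 4.75, the highest levels outside the 5, and miR-203-3p measured 4.55 and 4.21, the lowest of each group. Detection of miR-206-3p thus went with a step in miR-205-5p and miR-203-3p on 5 arrays, and without one in miR-203-3p on 2. On these 2, miR-205-5p lay below replicates 8 and 11 and above the remaining arrays of each group. Those measured 4.48 and 4.23 in P2.5 hyperoxia, and 3.85 and 3.84 in P3.5 normoxia.

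**Figure D3:**
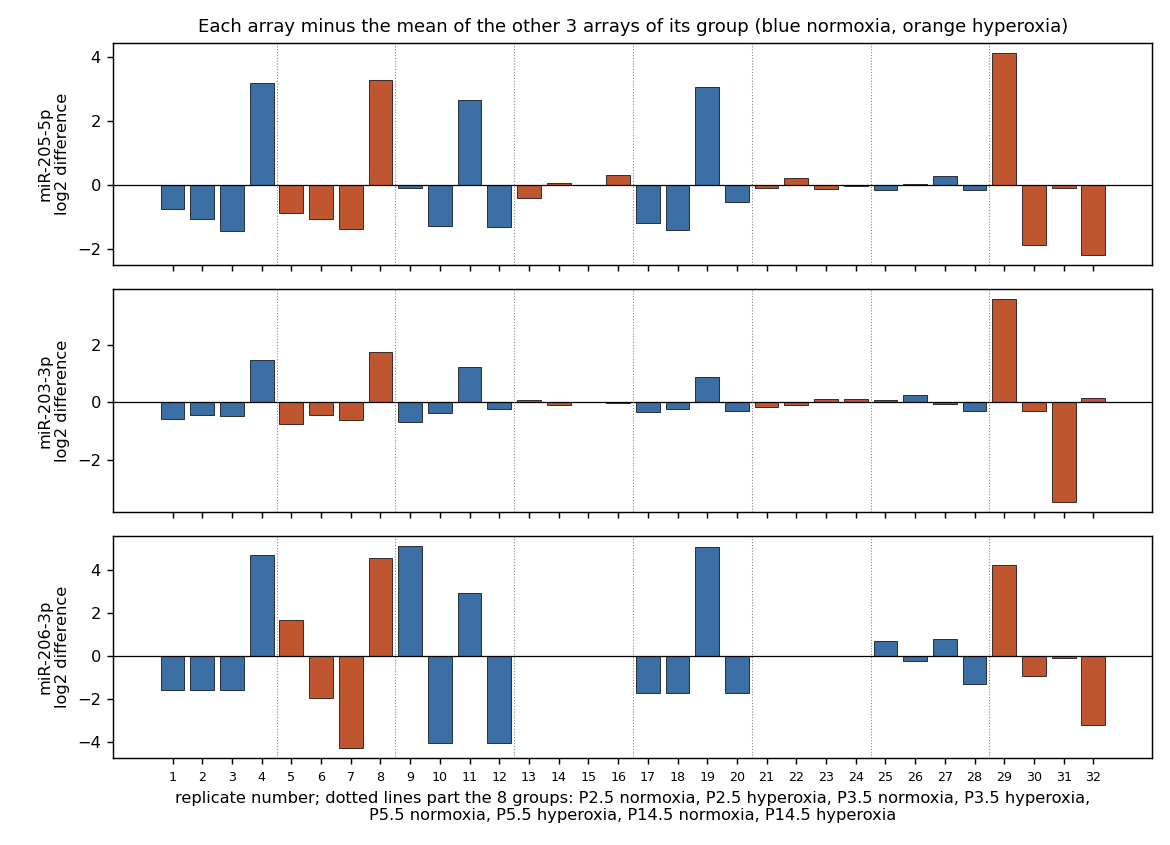
Log2 level on each array minus the mean of the other 3 arrays of its group, for miR-205-5p, miR-203-3p and miR-206-3p, by replicate number. Blue bars are normoxia and orange bars hyperoxia, and dotted lines part the 8 groups. The bars of replicates 4, 8, 11, 19 and 29 point up in all 3 panels, and that of replicate 9 in the miR-206-3p panel alone, at 5.15. For replicate 9 the mean of the other 3 arrays includes the high replicate 11.

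The other muscle miRNAs did not always move with miR-205-5p, miR-203-3p and miR-206-3p. The 4 that passed the detection filter had a median difference of 0.32, 0.31, -0.05, 0.38 and 1.97 on replicates 4, 8, 11, 19 and 29. There 3, 1, 0, 1 and 4 of them were the highest of their group. The list of striated muscle and heart miRNAs held 7 miRNAs, of which 7 were detected on replicate 9, 5 on replicates 5, 8 and 11, and 4 on replicates 4, 19 and 29. miR-133b-3p, which lies next to miR-206 in the genome, differed from the other 3 arrays of the group by 0.83, 0.89, 0.25, 1.00 and 1.88 on replicates 4, 8, 11, 19 and 29. miR-1a-3p, of heart and skeletal muscle, differed by 0.28, 0.39, -0.36, 0.17 and 3.39. On replicate 9 miR-133b-3p differed by 3.22, more than on any of those 5 arrays. miR-1a-3p differed by 3.26 there, more than on 4 of the 5, with replicate 29 the exception. The heart miRNA miR-208a-3p was detected on 1 array and miR-499-5p on 2. Of the other list members, miR-133a-3p differed by 3.03 on replicate 9. miR-208b-3p differed by 2.65 on replicate 6 of P2.5 hyperoxia, the largest difference among the tested miRNAs of that array. On replicate 29 it differed by 2.05, at a level of 4.26, below the detection limit of 5.33 there. The summed signal of the 4 list miRNAs that passed the detection filter ran from 272 to 442 over the arrays of P2.5 normoxia, 278 to 1443 in P2.5 hyperoxia, 203 to 3070 in P3.5 normoxia and 295 to 866 in P3.5 hyperoxia. It ran from 226 to 525 in P5.5 normoxia, 127 to 236 in P5.5 hyperoxia, 349 to 423 in P14.5 normoxia and 97.9 to 485 in P14.5 hyperoxia. Whether skeletal muscle or squamous epithelium from outside the lung was taken with some lungs was not tested.

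Epithelial miRNAs of the airway and lung differed by less than miR-205-5p on these arrays. The median difference of the 5 miR-200 family members was 0.09, 0.01, 0.16, -0.05 and 0.29 on replicates 4, 8, 11, 19 and 29, and 3, 0, 5, 0 and 4 of the 5 were the highest of their group there. For the 5 multiciliated cell miRNAs that passed the filter, members of the miR-34 and miR-449 families, it was -0.21, -0.24, -0.21, -0.25 and -0.32. On these 5 arrays 0 of the 5 were the highest of their group. miR-31-5p, which is abundant in skin, differed by 0.25, 0.10, 0.07, 0.03 and 0.01. Its other arm, miR-31-3p, differed by 0.30, 0.26, -0.07, -0.09 and 0.95, and it was undetected on replicates 4, 19 and 29. miR-184-3p, of the cornea, was detected on 0 of 32 arrays. The fibroblast, endothelial and leukocyte lists had medians from -0.20 to 0.34 on these arrays, and the list of liver, gut, endocrine and neural miRNAs had medians from -0.22 to 0.12. The erythroid list differed by 0.44 and 1.11 on replicates 4 and 8 and by -0.44, -0.55 and -0.01 on the other 3. Replicates 4 and 8 shared 1 slide and replicates 19 and 29 another, while replicate 11 lay on a slide with none of these. The part of slide in the step was not tested.

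**Figure D4:**
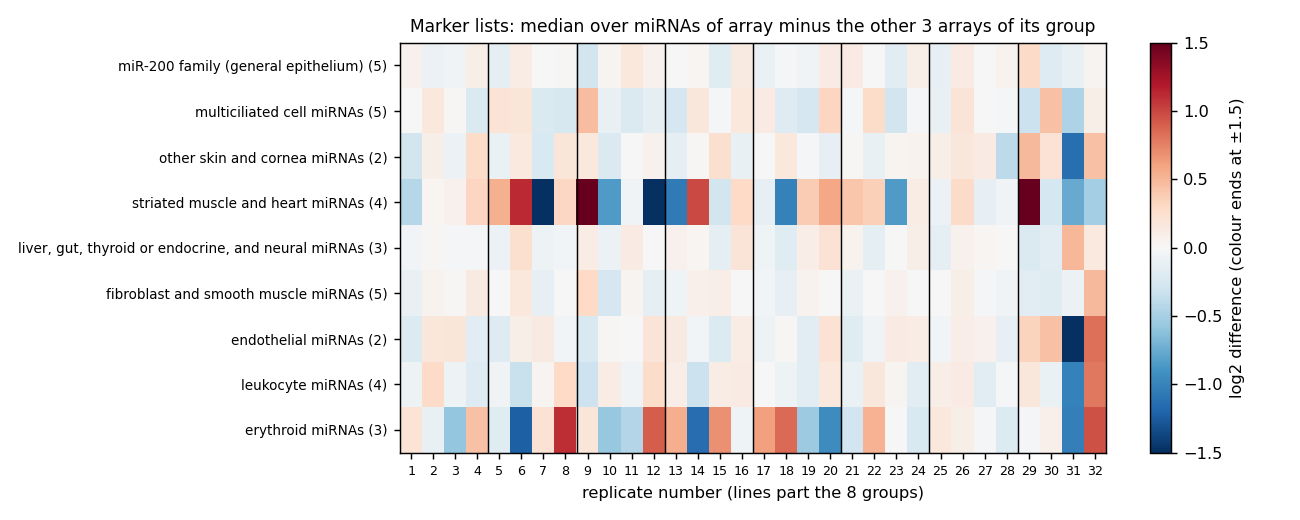
Median over the miRNAs of each marker list (number in brackets) of the log2 difference between an array and the other 3 arrays of its group, with colours ending at ±1.5 and replicate numbers along the bottom. The muscle row is reddest at replicates 9 and 29 and bluest at replicates 7 and 12, and the multiciliated row lies between -0.21 and -0.32 on replicates 4, 8, 11, 19 and 29.

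In group means the spread was wide where a group held such an array. For miR-205-5p the means ran from P2.5 hyperoxia at 5.27 ± 1.65 (SD, n = 4) over P3.5 normoxia at 4.81 ± 1.40, P2.5 normoxia at 4.59 ± 1.62 and P3.5 hyperoxia at 4.17 ± 0.22 to P5.5 normoxia at 3.89 ± 1.56. P5.5 hyperoxia followed at 3.38 ± 0.11, then P14.5 hyperoxia at 2.84 ± 2.18 and P14.5 normoxia at 1.32 ± 0.16. In 0 of the 7 pairs of neighbours in this order did the means differ by more than the larger SD. The medians, which 1 array in 4 moves little, were 3.92 to 4.55 over the 4 groups of P2.5 and P3.5, 3.26 and 3.34 at P5.5, and 1.27 and 2.11 at P14.5. For miR-203-3p the means ran from 5.10 ± 0.88 in P2.5 hyperoxia to 3.78 ± 2.15 in P14.5 hyperoxia. Again 0 of 7 neighbouring pairs differed by more than their spread. Its medians spanned 3.73 to 4.74.

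The differences between exposures were within the spread of the arrays for both miRNAs at every age, and several changed sign when 1 array was left out. Hyperoxia minus normoxia for miR-205-5p was 0.68 (SE 0.95) at P2.5, -0.65 (SE 0.61) at P3.5, -0.51 (SE 0.68) at P5.5 and 1.52 (SE 0.95) at P14.5. The last 2 include undetected arrays, 5 of 8 at P5.5 and 7 of 8 at P14.5, and with those of 1 group or the other at their limit the P14.5 value ran from -0.94 to 3.69. Without replicate 8 the P2.5 difference became -0.15, and without replicate 4 it became 1.48. Without replicate 11 the P3.5 difference became 0.02, and without replicate 19 that of P5.5 became 0.26. At P14.5 it fell to 0.48 without replicate 29 and to -0.04 without the 3 arrays of low labelling. For miR-203-3p the differences were 0.24 (SE 0.47), 0.02 (SE 0.28), -0.13 (SE 0.20) and -0.63 (SE 0.94) in the same order of ages. They became -0.20 without replicate 8, 0.33 without replicate 11, 0.09 without replicate 19, and at P14.5 -1.53 without replicate 29 and 0.22 without replicate 31. The SE come from limma, and no p is given because the members were chosen with these values known.

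Between P2.5 and P14.5 miR-205-5p went from detected on 8 of 8 arrays to detected on 1 of 8. In normoxia miR-205-5p at P14.5 minus P2.5 was -3.27 (SE 0.87), and its 4 values at P14.5 all lay below the 4 at P2.5. Such a gap between groups was common in this comparison, where the arrays of 71.7% of all 297 miRNAs tested did not overlap. With no P14.5 normoxia array detected this is a bound, and the P2.5 mean was at least 1.76-fold above the lowest signal that counts as detected on the P14.5 arrays. Replicate 4 decided that bound, which was 1.01-fold without it, and the measured difference was -2.47 without it. In hyperoxia the measured difference was -2.43 (SE 0.89), with 1 of 4 arrays detected at P14.5. With the undetected arrays at their limit it was -0.26, and normexp background correction turned it to 0.29, so that its size is not settled. There the ranges overlapped through replicate 29, and 59.6% of the 297 miRNAs tested did not overlap. The measured difference was -3.46 without replicate 29, which leaves 0 of 3 detected at P14.5, and -1.61 without replicate 8. For miR-203-3p the differences were -0.45 (SE 0.36) in normoxia and -1.32 (SE 0.76) in hyperoxia. The first was -0.09 without replicate 4, and the second ran from -2.22 without replicate 29 to -0.46 without replicate 31. In whole lung, fewer cells of a type and less RNA per cell cannot be told apart. The P2.5 arrays lay on other slides than the P14.5 arrays, so that slide and age cannot be told apart either.

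The miRNAs whose pattern was most like that of miR-205-5p were ranked by the Pearson correlation of their deviations from the 8 group means over 32 arrays, among 318 others. They were miR-433-3p (0.73), miR-434-3p (0.71), miR-203-3p (0.70), miR-410-3p (0.69) and miR-669f-3p (0.63). miR-433, miR-434 and miR-410 belong to the imprinted Dlk1-Dio3 cluster, which like Mir203 is on chromosome 12. By level over the arrays miR-410-3p (0.82), miR-433-3p (0.80) and miR-434-3p (0.79) came first. Without replicates 29 and 8, the 2 farthest from the median, the deviation correlations were 0.65, 0.62, 0.50, 0.61 and 0.50. Over the 24 arrays of the first 3 ages miR-203-3p came first at 0.93, and miR-483-3p was next at 0.74. When miRNAs detected on at least 5 arrays were admitted, a choice made after the data were seen, miR-206-3p ranked 1 of 346 others at 0.84, with Spearman's rho 0.81. It was detected on 7 arrays, among them the 5 where miR-205-5p stood far above its group. The match therefore restates those arrays and is no separate support for a link.

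For miR-203-3p the same rule gave miR-183-5p (0.80) and miR-96-5p (0.78), which share a cluster, miR-322-5p (0.76), miR-31-3p (0.75) and miR-434-5p (0.75). These rested on 2 arrays of low labelling. Without replicates 29 and 31 they were 0.48, 0.35, 0.19, 0.30 and 0.26, while miR-205-5p rose from 0.70, rank 20, to 0.86. By level the nearest were miR-98-5p (0.73), let-7f-5p (0.72) and miR-128-3p (0.72), which were 0.52, 0.49 and 0.58 without those 2 arrays. Over the 24 arrays of the first 3 ages miR-205-5p was the first match of miR-203-3p at 0.93, in deviation and in level alike, and miR-145-5p was the next in deviation at 0.60.

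The other epithelial miRNAs were tested between exposures, in lists that were chosen with earlier results of these data known. At P5.5 both arms of miR-31, another miRNA of skin, were higher in hyperoxia, miR-31-5p by 0.43 (SE 0.060, limma adjusted p = 0.00319) and miR-31-3p by 0.39 (SE 0.082, limma adjusted p = 0.0121). The second was detected on 4 of 4 hyperoxia arrays and 0 of 4 normoxia arrays, so its difference is from signals near background. It entered the test only through the group where it was high, so its p is no independent support for a rise. In the miR-200 family 2 of 5 rose, miR-200b-3p by 0.25 (SE 0.067, limma adjusted p = 0.0313) and miR-200a-3p by 0.21 (SE 0.061, limma adjusted p = 0.0384). Of 4 multiciliated cell miRNAs tested, miR-34b-5p rose by 0.39 (SE 0.117, limma adjusted p = 0.0443). Over all 10 lists 10 of 31 miRNAs tested passed at P5.5, 5 in each direction, against 25.2% of all 254 tested. Leaving out replicate 17, 19, 21, 22 or 24 brought the 10 down to 5, 6, 6, 4 and 6. Of the 5 epithelial calls, miR-31-5p alone passed with the percentile over all probes, with total gene signal and in 1 fit of 32 arrays, and 0 passed with normexp. In the leave-one-out fits miR-31-5p always passed, as did miR-31-3p, which the filter let in through hyperoxia alone. By contrast, miR-200a-3p, miR-200b-3p and miR-34b-5p were all lost without replicate 17, 19, 21, 22 or 24.

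**Figure D5:**
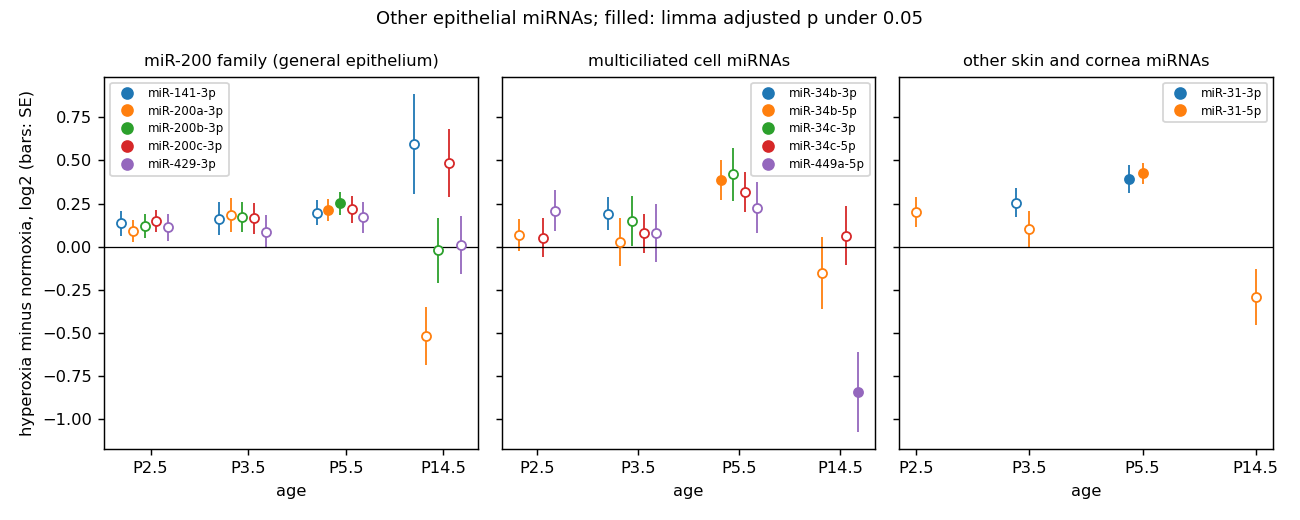
Hyperoxia minus normoxia in log2 level, with its SE, for the tested miRNAs of 3 epithelial lists at each age (4 arrays a group). Filled points had a limma adjusted p under 0.05. At P5.5 the 11 points lie above 0, with miR-31-5p at 0.43 and miR-200b-3p at 0.25. Not all of these miRNAs were detected on every P5.5 normoxia array. miR-31-3p, for one, passed the filter through hyperoxia alone, so the shared direction is no independent support for a rise.

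At the other ages little of these lists passed. At P2.5 the count was 0 of 29 list miRNAs by limma and 0% of all 286 tested. At an unadjusted p under 0.05 it was 8 of the 29, close to the share over the whole array, 74 of the 286. By the methods' t-test it was also 0 after adjustment. By limma it was 3 without replicate 7. At P3.5 the 1 miRNA of 33 that passed was the erythroid miR-3107-5p, against 2.64% of all 303. It was lost without replicate 9, 11, 13, 14 or 16, which left 0. At P14.5 the count was 8 of 28 against 20.7% of all 222, with 1 epithelial miRNA among them, the multiciliated miR-449a-5p, lower by 0.84 in hyperoxia (difference -0.84, SE 0.232, limma adjusted p = 0.0387). This call was lost under quantile normalization, normexp, the series table and without the arrays of low labelling, among others. The count ran from 2 without replicate 25, 26, 27 or 28 to 5 without replicate 32 and 15 without replicate 31.

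From P2.5 to P14.5 several epithelial miRNAs fell. In normoxia 5 of 5 miR-200 family members were lower, from miR-200b-3p at -0.83 (SE 0.072, limma adjusted p = 7.63e-08) to miR-429-3p at -0.43 (SE 0.085, limma adjusted p = 0.000294). The multiciliated miR-449a-5p fell by 1.65 (SE 0.139, limma adjusted p = 5.8e-08), and miR-31-5p rose by 0.36 (SE 0.089, limma adjusted p = 0.0019). Over all lists 17 of 29 passed, against 73.4% of all 297. In hyperoxia 3 of 5 miR-200 family members passed, all lower, with miR-200a-3p at -1.13 (SE 0.114, limma adjusted p = 8.13e-07), and the multiciliated miR-449a-5p fell by 2.70 (SE 0.204, limma adjusted p = 5.44e-08). The median difference of the 5 miR-200 family members in hyperoxia was -0.53, against -0.63 over all 297 tested. In normoxia it was -0.57 against -0.20. Over all lists 16 of 29 passed in hyperoxia, against 68.7% of all 297. The lists as a whole thus moved with age no more often than the array did. Slide and age cannot be told apart here, and the P14.5 groups include the arrays of low labelling.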

How the data were processed

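The files were 1-colour Agilent mouse miRNA arrays, 1 for each of 32 lung samples. The authors deposited scanner output of Agilent Feature Extraction 10.7.3.1, with an intensity for each spot after background subtraction, and a series table whose log2 values were made from the same arrays. That table was an alternative here. Spot intensities were averaged per probe without outlier spots, scaled to the 75th percentile of the 205 probes detected on all arrays, averaged over the probes of a miRNA, set to a floor of 2.30 (the median additive error) and put on the log2 scale. The number of arrays limits the precision. Viral probes were left out. The labels describe a labelling kit for cRNA, so the kit used for these miRNA arrays is unclear.

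The members and the 10 marker lists were chosen with earlier results of these data known. Group and age effects on 45 list miRNAs were fitted with limma 3.58.1 in R 4.3.3 across the miRNAs that a compared group showed as detected on each of its 4 arrays, with Benjamini-Hochberg adjustment and a threshold of 0.05. The limma step was tested on simulated data. Named miRNAs were the members, the opposite arms, for each member the 5 miRNAs most like it in deviation and 3 in level, and up to 3 list miRNAs with the smallest p per list and comparison. miR-206-3p and the miRNAs named for the 24 arrays were named after their values were seen. Alternatives covered scaling, background correction, probe summary, floor, the series table, detection filter, slide, low labelling, each array left out, the methods' t-test and 1 fit of 32 arrays. Correlations over 24 or 29 arrays and over the wider pool of miRNAs, and steps with undetected arrays at their limit, were added after the data were seen. Replicates are separate animals of 1 group, and the labels do not say which were littermates.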

Additional observations from a re-analysis of the deposited data

Results flagged for a closer look

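In 5 of 16 sets of 4 arrays (2 miRNAs in 8 groups) the highest array lay so far from the next that its gap passed the critical value of Dixon's ratio for 4 values. Chance flags about 1 in 20 sets, but that rate does not hold for miRNAs chosen by these same levels, and the values are a description. For miR-205-5p these were replicate 4 of P2.5 normoxia, at 6.99, and replicate 8 of P2.5 hyperoxia, at 7.74. For miR-203-3p they were the same 2 arrays, at 5.96 and 6.42, and replicate 19 of P5.5 normoxia, at 5.04. The ratios were 0.850, 0.889, 0.943, 0.873 and 0.910. Replicate 19 of P5.5 normoxia for miR-205-5p, at 6.20, came close with a ratio of 0.807. On each of the 3 arrays miR-206-3p was detected too, at 5.89, 7.86 and 6.30.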

How the results depend on the processing

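No paired analysis was possible because the replicate numbers run from 1 to 32 and no 2 groups share one. The list counts at P3.5 (1) became 0 with quantile normalization, total gene signal, the series table, no detection filter, slide as a fixed block and the methods' t-test, 2 with the brightest probe, a higher floor and 1 fit of 32 arrays, and 3 with normexp. At P5.5 the count of 10 became 1 with the percentile over all probes, 2 with normexp and with 1 fit of 32 arrays, 5 with the series table and 6 with no filter. At P14.5 the 8 became 1 with the percentile over all probes, 2 with the series table, 3 with quantile normalization, normexp and the methods' t-test, 4 with total gene signal and with no filter, 5 with the slide block, 14 without the arrays of low labelling and 18 in 1 fit. The hyperoxia age count of 16 became 10 with normexp and 9 with the methods' t-test. Leaving out 1 array gave 0 to 3 at P2.5, 0 to 1 at P3.5, 4 to 11 at P5.5 and 2 to 15 at P14.5. For miR-205-5p, hyperoxia minus normoxia became 0.91 at P5.5 with the series table and -0.038 at P14.5 without low labelling. Its age difference in normoxia became -0.30 with normexp, -1.39 with the higher floor and -6.83 with the series table, and in hyperoxia 0.29 with normexp and -5.34 with the series table. For miR-203-3p the age difference in hyperoxia became 0.60 with normexp. The cause was not tested. The fixed slide block could not be fitted to the age comparisons. Signals near background limit miR-205-5p at P14.5.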

Other observations

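Single miRNAs in the lists of other cell types passed between groups too, and they do not stand for their lists. Between exposures 32.3% of list miRNAs passed at P5.5 and 28.6% at P14.5, against 25.2% and 20.7% of all tested. From P2.5 to P14.5 in normoxia it was 58.6% against 73.4%. At P5.5 the median difference was 0.03 over the 5 fibroblast and smooth muscle miRNAs tested and 0.09 over the 4 leukocyte miRNAs. At P5.5 miR-126-3p of endothelium was lower in hyperoxia (difference -0.33, limma adjusted p = 0.0202), as were miR-145-5p (-0.47, 0.00583) and miR-143-3p (-0.26, 0.0183) of smooth muscle, the lymphocyte miR-150-5p (-0.45, 0.00985) and miR-1a-3p of striated muscle (-0.93, 0.0404). At P14.5 miR-126-3p (-1.49, limma adjusted p = 0.0189) and miR-150-5p (-2.25, 0.000164) were lower in hyperoxia, and miR-199a-5p of fibroblasts (1.13, 0.0106) and the myeloid miR-223-3p (1.18, 0.0493) were higher. Of the 5 fibroblast and smooth muscle miRNAs tested there, 1 passed as higher and 1 as lower, and their median difference was 0.19. In normoxia the erythroid miR-144-3p (-2.93, limma adjusted p = 5.57e-07) and miR-451 (-2.71, 9.01e-07) were lower at P14.5 than at P2.5, and miR-126-3p was higher (0.51, 4.23e-05). The P14.5 values include the arrays of low labelling.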
